A study of Rattus norvegicus with 2 samples.

Results

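The immediate early genes of the AP-1, Egr and Nr4a families were followed in cultured carotid body cells after 7 days of hypoxia. Members were chosen by name from the 1185 spots of the membrane: spots named for c-fos, a fos-related antigen, c-jun, Jun-B, Jun-D, NGFI or an early growth response protein, leaving out kinases and ribosomal proteins. This gave 8 genes, namely Fos, Fosl1, Fosl2, Jun, Junb, Jund, Egr1 and Nr4a1. No spot carried the full name of the activity-regulated cytoskeleton protein. A spot deposited as "growth factor; Arc" was therefore no member and is described after them.

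The cells came from the carotid bodies of Sprague Dawley rats of about 100 g, with 16 carotid bodies, pooled over animals, in each primary culture. Chronic hypoxia meant 7 days at 1% oxygen in a chamber flushed with 5% CO2 and 95% N2, and normoxia meant 7 days at 21% oxygen in 5% CO2. The medium of both groups held nerve growth factor at 15 ng/ml, horse serum (10%) and fetal bovine serum (10%). Each condition was measured on 3 nylon membranes hybridised with 32P-labelled cDNA made from amplified RNA, and nothing in the labels says whether each membrane had its own culture. The p-values below thus reflect only how these membranes vary, and that variation may be technical.

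Immediate early genes are transcribed within minutes of a stimulus from factors already present in the cell, with no need for new protein. Fos and Jun proteins pair through leucine zippers to form the transcription factor AP-1, while Egr1 is a zinc finger factor and Nr4a1 an orphan nuclear receptor. Serum, growth factors, membrane depolarisation and hypoxia are all known inducers, and the transcripts usually fade within hours. In the glomus cells of the carotid body, which depolarise when oxygen falls, Fos is a widely used sign of recent activity.

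The membranes differed in ways that bear on every value. Median intensity was 1704, 3409 and 16411 on chronic hypoxia membranes 1 to 3, against 2427, 3409 and 2681 on normoxia membranes 1 to 3, and the lowest spot of chronic hypoxia membrane 3 was at 14591. A spot was called above background where its distance over the membrane's median was greater than 3 root mean square deviations of the spots under that median, which held for 72 to 186 spots in chronic hypoxia and 139 to 205 in normoxia. Chronic hypoxia membranes 1 and 3 had a rank correlation of 0.772 across genes, against at most 0.580 for any other pair. Of 8 glomus cell markers, Slc6a3, Dbh, Cpe and Ache were above background on all 6 membranes and Ddc, Slc18a2 and Chga on none. Of the other cell types, Nos3 of the 3 endothelial markers was above background on all 6 membranes, while 0 of 4 glial, 0 of 4 immune and 0 of 1 sympathetic neuron markers reached 3 membranes. In such cultures fewer cells of a type and less RNA per cell cannot be told apart.

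Fos was above background on all 6 membranes and Jun on 4, while Fosl1, Fosl2, Junb, Jund, Egr1 and Nr4a1 were above background on none. Over all 1185 spots, 4.14% were above background on all 6 membranes and 73.2% on none. No member differed between chronic hypoxia and normoxia at an adjusted p under 0.05. In the limma fit over 1038 tested genes, 0% were called, 75 genes (7.23%) had an unadjusted p under 0.05, and 0 of the 7 members tested were among these 75. Of the 7 members tested, 5 were higher and 2 lower in chronic hypoxia, while over all tested genes 500 were lower and the rest higher. Their median log2 difference was 0.45, against 0.03 over all tested genes, and 5 of the 7 were spots at background. The 0.45 is the value of Egr1, which was above background on no membrane. This median was 0.10 without chronic hypoxia membrane 1 and -0.0024 without normoxia membrane 3. The values of the groups overlapped for each of the 7, while over all tested genes 13.9% had groups that did not overlap.

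**Figure D1:**
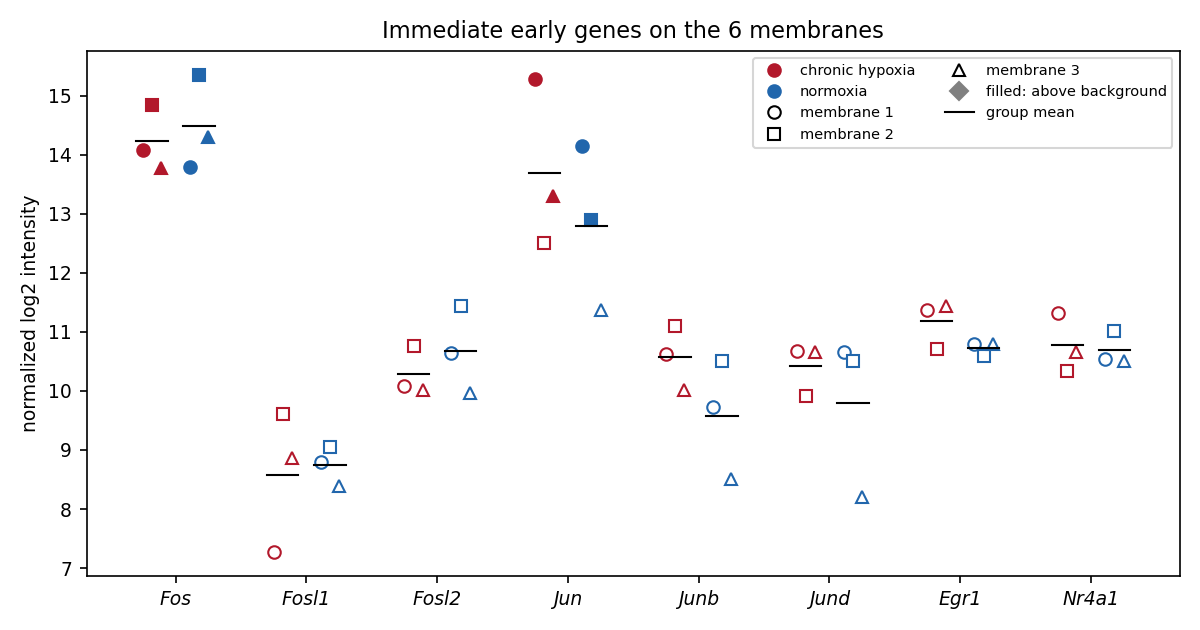
Normalized log2 intensity (vertical axis) of the 8 immediate early genes on the 3 chronic hypoxia membranes (red, left of each gene) and the 3 normoxia membranes (blue, right), with filled symbols for spots above background and a line at each group mean. Fos is filled on 6 of 6 membranes and Jun on 4, and the other 6 genes have open symbols throughout.

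Fos encodes the AP-1 subunit that pairs with Jun proteins and is the usual marker of recent stimulation. Its deposited intensities were 16752, 16387 and 35567 on chronic hypoxia membranes 1 to 3, against 18786, 27123 and 41005 on normoxia membranes 1 to 3. Each lay above its own membrane's limit, and the groups overlapped. Much of the value on chronic hypoxia membrane 3 was that membrane's own level. Above the membrane median, Fos had 15048, 12978 and 19156 units in chronic hypoxia and 16359, 23714 and 38324 units in normoxia, so that normoxia membrane 3 was the highest and chronic hypoxia membrane 2 the lowest.

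After background correction and quantile normalization, the log2 value of Fos was 14.23 ± 0.55 (SD, n = 3) in chronic hypoxia and 14.48 ± 0.80 (SD, n = 3) in normoxia. The difference was -0.25 with an SE of 0.62, which is smaller than the spread between membranes (limma adjusted p = 0.934, two-sided exact permutation p = 0.6). Its 95% interval spans a fold of 0.324 to 2.17 and includes changes in either direction. Normalization also changed which membrane was highest, since normoxia membrane 2 led at 15.36, ahead of normoxia membrane 3 at 14.29. Without normoxia membrane 2 the Fos difference was 0.18. Between the membranes whose values come in steps of about 52, 1 of each group, it was 0.28, and between those with steps of 103, 1 of chronic hypoxia and 2 of normoxia, it was 0.0093.

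The position next to Fos on the membrane holds Wt1, the Wilms tumour transcription factor, which was bright throughout. Wt1 had intensities of 45253, 29748 and 36355 in chronic hypoxia and 42335, 38854 and 35224 in normoxia, and was brighter than Fos on 5 of the 6 membranes. Vhl, on the other side of Wt1, was above background on 0 chronic hypoxia and 2 normoxia membranes, at 4760 and 7033. Myc, on the other side of Fos, was above background on 1 chronic hypoxia membrane, at 20179. A spread of signal from Wt1 into the Fos spot was not tested. Of the positions next to Fos in the other direction, the spot of the netrin receptor DCC was above background on 4 membranes and that of a proteasome delta subunit on none.

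Jun encodes the partner subunit of AP-1 and the substrate of the c-Jun N-terminal kinases. Its intensities were 45245, 5479 and 30259 on chronic hypoxia membranes 1 to 3, against 23921, 7642 and 4339 on normoxia membranes 1 to 3. Jun was above background on 2 membranes of each group, and chronic hypoxia membrane 2 and normoxia membrane 3 fell below their limits. The largest value came from chronic hypoxia membrane 1, and normoxia membrane 1 was brighter than chronic hypoxia membrane 2.

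The normalized log2 intensity of Jun was 13.70 ± 1.43 (SD, n = 3) in chronic hypoxia and 12.80 ± 1.40 (SD, n = 3) in normoxia. The difference of 0.90 with an SE of 0.88 was within the spread between membranes (limma adjusted p = 0.832, two-sided exact permutation p = 0.5), and its 95% interval runs from a fold of 0.482 to 7.19. Exact permutation of 3 against 3 membranes cannot give a p under 0.10. The Jun spread was large even for this array. Its pooled SD within groups was 1.41 on the log2 scale, larger than that of 134 of the 152 genes that passed their background limit on 3 or more membranes, whose median was 0.81, while the SD of Fos, 0.68, was larger than that of 55 of them.

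Both membranes with steps of 52 gave the highest normalized Jun values, 15.28 for chronic hypoxia membrane 1 and 14.15 for normoxia membrane 1. Chronic hypoxia membrane 3, whose values followed neither step, came next at 13.30, and the 3 membranes with steps of 103 lay between 11.36 and 12.89. Within the steps of 52 the difference was 1.13, within the steps of 103 it was 0.38, and with the step size as a block it was 0.70. The Jun difference was 0.10 without chronic hypoxia membrane 1 and 0.18 without normoxia membrane 3. The spots beside Jun in its row hold other proto-oncogenes, Mycn and S-myc, and were above background on 0 membranes. Fgfr1, a receptor of fibroblast growth factors in the next position of the other direction, had 7718, 1960 and 49543 in chronic hypoxia and 7820, 4433 and 4539 in normoxia and was above background on 3 membranes that were also above background for Jun.

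**Figure D2:**
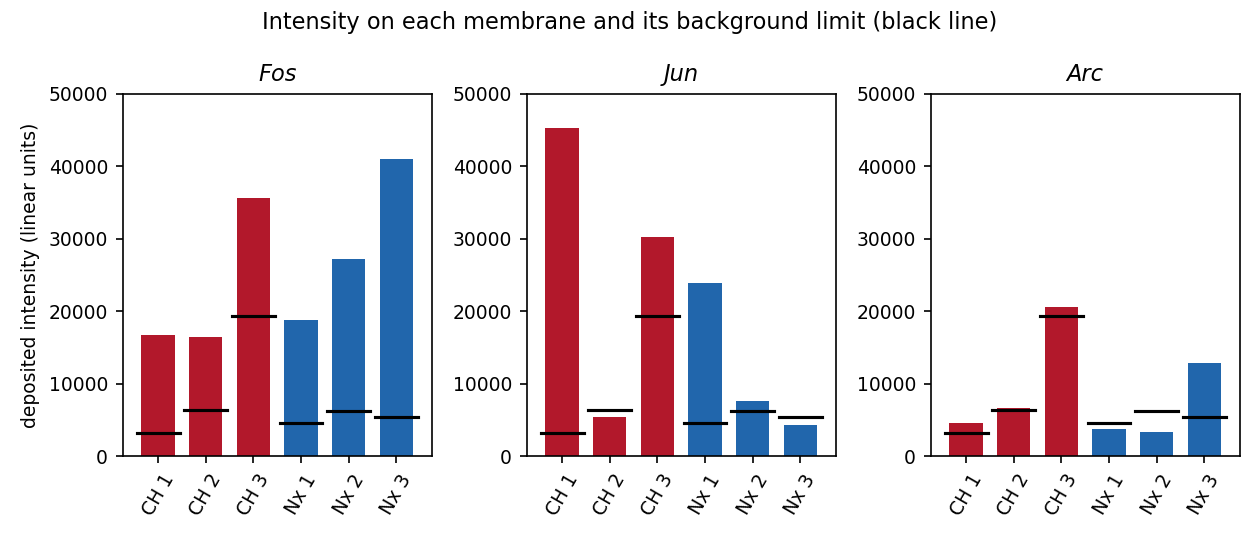
Deposited linear intensity (vertical axis) of Fos, Jun and Arc on each chronic hypoxia membrane (CH, red) and normoxia membrane (Nx, blue), with a black line at the limit above which a spot was called above background on that membrane. Fos passes the limit on all 6 membranes, Jun on 2 of 3 in each group, and Arc on 3 chronic hypoxia membranes and 1 normoxia membrane.

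Fosl1 and Fosl2 encode the Fos-related antigens Fra-1 and Fra-2, which are induced later than Fos and lack its strong transactivation domain. Fosl1 was the dimmest member, with 465, 2581 and 15167 in chronic hypoxia and 1443, 2172 and 1236 in normoxia. It lay below the 25th percentile on all 6 membranes, as 0.422% of all spots did, and so was not tested. All 6 values were also below the median of the 5 spots around it, and the 3 spots in the positions next to it were above background on no membrane. Fosl2 had 1446, 3618 and 15823 in chronic hypoxia and 2534, 4857 and 2163 in normoxia. These values ranged between 39.6% and 82.1% of the limit of their membrane, and 3 of 6 were above the membrane median.

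Junb and Jund encode the other Jun proteins, of which Jund is known to be present in unstimulated cells and Junb to be induced. Junb had 1759, 4033 and 15823 in chronic hypoxia and 1857, 3406 and 1339 in normoxia, and was above the membrane median on 2 chronic hypoxia membranes. Jund had 1807, 2884 and 16551 in chronic hypoxia and 2581, 3409 and 1133 in normoxia. Both were lowest in rank on normoxia membrane 3, at percentiles 6.50 and 3.63 of its spots. No fold is given for these members, since both groups were at background. Fosl2, Junb and Jund sit side by side on the membrane. Ddit3, in the position next to Jund, was above background on 4 membranes.

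Egr1 is a zinc finger factor of GC-rich promoters. Its intensities were 2530, 3612 and 18007 in chronic hypoxia and 2686, 3515 and 3097 in normoxia. Egr1 was above the membrane median on 6 of 6 membranes yet above background on none, with values at 55.8% to 93.4% of the limits. The spot beside it, of gastric inhibitory polypeptide, was above background on all 6 membranes, at 9403 to 38583 in chronic hypoxia and 19587 to 62906 in normoxia. Nr4a1, known as Nur77 or NGFI-B, had 2427, 3206 and 16551 in chronic hypoxia and 2430, 4124 and 2681 in normoxia. Nr4a1 was thus at most 723 units above the membrane median, equal to it on normoxia membrane 3 and below it on chronic hypoxia membrane 2. Its relative Nr4a3, deposited as NOR-1 and no member, lies beside it and was likewise above background on no membrane, with 1704, 4742 and 15599 in chronic hypoxia and 2116, 4445 and 2884 in normoxia.

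The promoters of this pair are shown because both genes are known to be induced by serum and growth factors, which the medium of both groups contained, and neither gave a signal above background. RefSeq windows of the GRCr8 build, from 250 bases before to 50 bases after the annotated start, were found for 6 of the 8 members: Fosl1, Fosl2, Junb, Jund, Egr1 and Nr4a1. Capitals mark the core of the cAMP response element, TGACG, and the CArG box, which serum response factor binds, on either strand.
Egr1, chr18:26736828-26737127, plus strand: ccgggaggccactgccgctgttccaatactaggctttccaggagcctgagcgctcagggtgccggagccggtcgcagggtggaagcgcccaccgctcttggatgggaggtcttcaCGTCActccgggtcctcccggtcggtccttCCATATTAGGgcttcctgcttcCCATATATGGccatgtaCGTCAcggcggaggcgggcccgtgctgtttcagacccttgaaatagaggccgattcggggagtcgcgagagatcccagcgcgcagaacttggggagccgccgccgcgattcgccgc
Nr4a1, chr7:134259888-134260187, plus strand: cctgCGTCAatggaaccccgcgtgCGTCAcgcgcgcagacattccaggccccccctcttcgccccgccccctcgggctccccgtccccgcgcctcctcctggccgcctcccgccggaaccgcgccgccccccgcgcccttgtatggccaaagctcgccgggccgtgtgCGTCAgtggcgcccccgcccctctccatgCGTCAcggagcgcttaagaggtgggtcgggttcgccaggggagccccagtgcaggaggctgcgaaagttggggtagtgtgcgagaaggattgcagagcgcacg

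The Egr1 window held 2 CArG boxes, beginning at positions -105 and -83 from the start, and 2 cAMP response cores. The Nr4a1 window held 4 of these cores. They were found in 5 of the 6 members' windows (all but that of Fosl2) and in 6030 of the 27457 windows of the table, CArG boxes in 1 of 6 and in 1.64%. The core of the hypoxia response element, ACGTG or GCGTG on either strand, was found in 5 of 6 (all but Fosl2) and in 42.9% of all windows. It overlaps a cAMP response core in Egr1 and in Nr4a1. The AP-1 site, TGACTCA or TGAGTCA, was found in 0 of 6 and in 4.53%. These are matches of letters, and no binding was measured.

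The spot deposited as "growth factor; Arc" was named after its values were seen. Arc is the symbol of an immediate early gene for a protein of dendrites and synapses, but the rest of the deposited name does not describe that gene, so the identity of the spot is uncertain. Its intensities were 4654, 6606 and 20583 in chronic hypoxia, all above background, against 3771, 3303 and 12840 in normoxia, where only membrane 3 was above background. On chronic hypoxia membranes 2 and 3 the values lay just over limits of 6406 and 19280. The groups overlapped, because normoxia membrane 3 was above chronic hypoxia membrane 3 after normalization, at 12.49 against 12.11. On the normalized log2 scale Arc averaged 12.65 ± 0.61 (SD, n = 3) in chronic hypoxia and 11.46 ± 1.06 (SD, n = 3) in normoxia. The difference of 1.19 with an SE of 0.68 did not pass the test (limma adjusted p = 0.654, two-sided exact permutation p = 0.2). It was 0.65 without normoxia membrane 2, 1.02 within the steps of 52 and 1.88 within the steps of 103. In units above the membrane median the order of the means was the other way, with 3440 ± 646 (SD, n = 3) in chronic hypoxia and 3799 ± 5555 (SD, n = 3) in normoxia, where membrane 3 alone held 10159.

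The authors' deposited table, which holds 1 normalized value per condition, listed Fos at 26553 in chronic hypoxia and 26705 in normoxia, a ratio of 0.994. For Jun the authors' deposited table had 24011 in chronic hypoxia and 7147 in normoxia, a ratio of 3.36. The authors' deposited table has 132 genes with a value over 0 for each condition, and 3 of them had a higher ratio than Jun. The mean Jun intensity above the membrane median was 19820 ± 21371 (SD, n = 3) in chronic hypoxia and 9128 ± 10786 (SD, n = 3) in normoxia, so the membranes behind that ratio varied by more than their own mean. In the authors' deposited table Arc had 1487 in chronic hypoxia and 2837 in normoxia, a ratio of 0.524. This is opposite in direction to the normalized log2 difference and has the same direction as the means above the membrane median. The other 6 members were listed at 0 in both conditions of the authors' deposited table, as were 861 genes of the array.

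Gene lists around the immediate early response held 0 called genes, against 0% of all tested genes. Their medians rest largely on spots at background and are given as a description. Of 11 MAP kinase and stress kinase genes, which carry growth factor and stress signals to Fos and Jun, 6 were higher and 5 lower in chronic hypoxia, 0 passed, and the median log2 difference was 0.37. Of these 11, 8 were above background on no membrane, against 73.2% of all spots, and the median was 0.01 without normoxia membrane 2 and 0.59 without normoxia membrane 3. Map2k1, the kinase that activates the ERKs, was the member above background on at least 3 membranes, with 3566, 3306 and 20543 in chronic hypoxia and 3307, 2887 and 7133 in normoxia (difference 0.53, limma adjusted p = 0.863). The c-Jun N-terminal kinase spots, Mapk8, Mapk9 and Mapk10, were above background on 1, 0 and 0 membranes. Of 15 kinases activated by calcium, cAMP or lipid, 11 were tested, 6 of them higher and 5 lower with a median of 0.00 and 0 passing. This median ranged from -0.42 without normoxia membrane 2 to 0.58 without chronic hypoxia membrane 2, and 11 of the 15 were above background on no membrane. Camkk1, which activates CaM kinases I and IV, was above background on the 3 normoxia membranes and on 0 chronic hypoxia membranes, at 2581, 2472 and 18371 in chronic hypoxia and 7506, 7033 and 5685 in normoxia. Its groups did not overlap, which largely follows from its signal being over the limit in normoxia only. The share without overlap was 12.5% of the 152 genes with signal on 3 or more membranes. That share takes in genes with signal in both groups, so it is no like comparison for Camkk1. Camkk1 did not pass (limma adjusted p = 0.645). CaM kinase I was above background on 2 chronic hypoxia and 1 normoxia membranes and differed by 0.35 (limma adjusted p = 0.923).

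Among transcription factors upstream or beside AP-1, 3 of 3 tested spots had higher values in chronic hypoxia (median difference 0.41), and 0 passed. That median is the value of a spot above background on no membrane, named cAMP-response element binding protein 1, and it was 0.02 without normoxia membrane 3 and 0.78 without chronic hypoxia membrane 3. Stat3, a cytokine-activated factor, was above background on 5 membranes, with 9591, 4539 and 29991 in chronic hypoxia and 10729, 6718 and 10024 in normoxia, a difference of 0.07 (limma adjusted p = 0.991). The spot named CREB active transcription factor was above background on 2 chronic hypoxia membranes.

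Of 9 other rapidly induced genes, 5 were higher and 4 lower in chronic hypoxia, with a median of 0.05 and 0 passing. The median was -0.10 without chronic hypoxia membrane 1 and 0.20 without normoxia membrane 2. Of the 9, 4 were above background on no membrane and 2 on at least 3, against 73.2% and 12.8% of all spots. Id2, an inhibitor of helix-loop-helix factors, was above background on 2 membranes of each group, with 7926, 3818 and 24083 in chronic hypoxia and 3148, 6309 and 15850 in normoxia (difference 0.15, limma adjusted p = 0.972). Ddit3, a stress-induced leucine zipper factor, was above background on 1 chronic hypoxia and 3 normoxia membranes, with 3668, 6097 and 18219 in chronic hypoxia and 5377, 15438 and 17932 in normoxia (difference -0.93, limma adjusted p = 0.764). Btg2 and Irf1 were above background on no membrane, and Myc on 1. A further list of 18 genes was found by names of genes and families with AP-1 or Egr1 targets known in other systems. Whether each gene on it is such a target was not checked. Of these 18, 13 were higher and 5 lower, with a median of 0.39 and 0 passing, while 500 of all 1038 tested genes were lower. The median was 0.15 without normoxia membrane 2 and 0.05 without normalization between membranes, and 13 of the 18 were above background on no membrane. The vasoconstrictor precursor Edn1 was above background on 2 chronic hypoxia and 1 normoxia membranes and differed by 0.42 (limma adjusted p = 0.885). Vegfd, first described as a growth factor induced by c-Fos, and the plasminogen activators Plau and Plat were at background throughout.

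Genes with a pattern across the 6 membranes most like that of Fos or Jun were sought among the 151 other genes with signal on at least 3 membranes. Closest to Fos were Ddit3 with a Pearson r of 0.91, cyclin G (r = 0.91) and the glutamic acid decarboxylase GAD67 (r = 0.90), all 3 highest on normoxia membrane 2, as Fos was. Closest to Jun were the ribosomal protein L36A with an r of 0.88, the striatum-enriched protein tyrosine phosphatase (r = 0.88) and Ache (r = 0.86), a spot that varied only between 15.78 and 15.88 on the normalized log2 scale. Fos and Jun themselves had an r of -0.40. Each r covers 6 membranes that were normalized together and do not all share a step size, and is a description of these membranes.

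**Figure D3:**
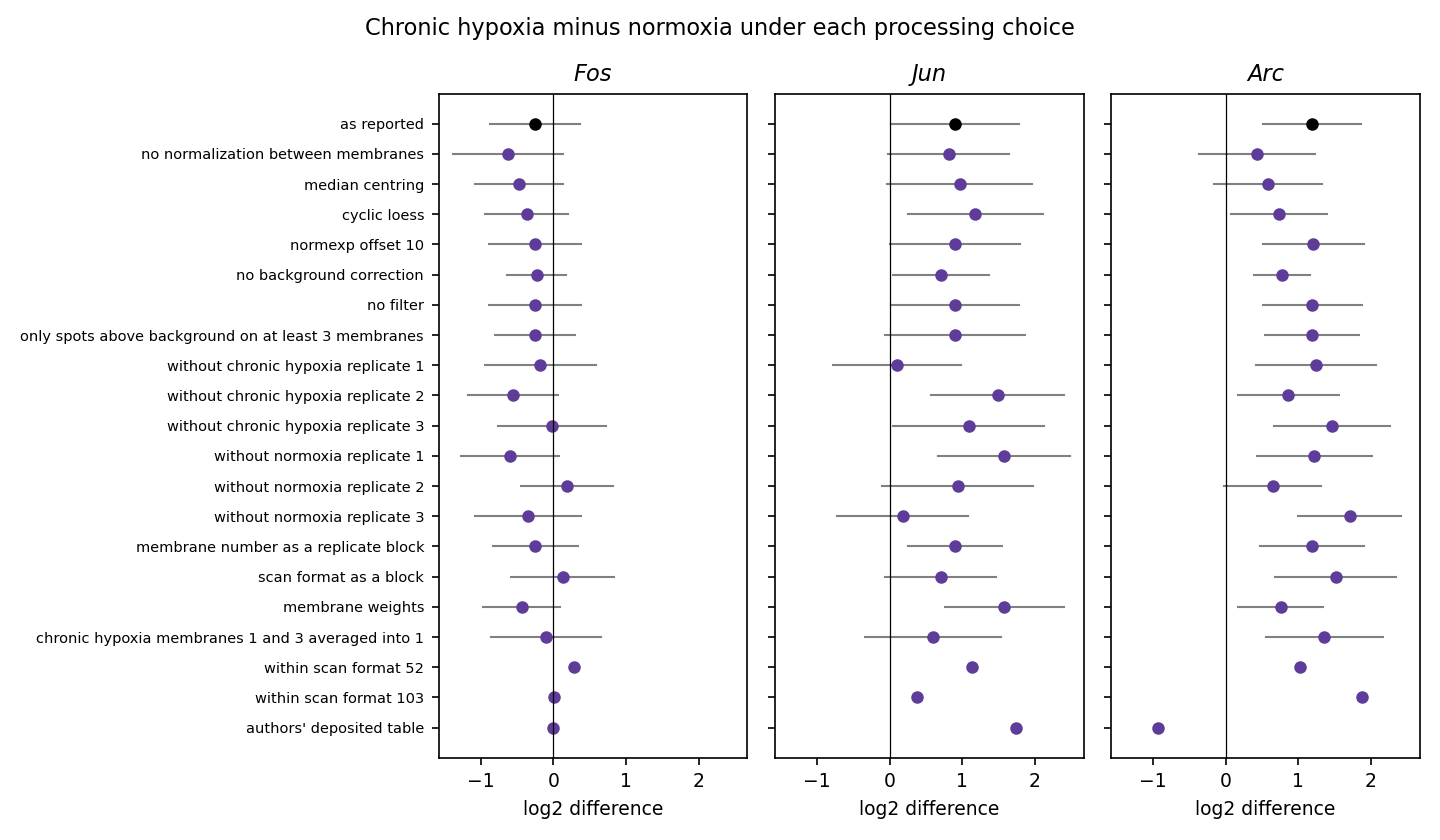
Log2 difference between chronic hypoxia and normoxia (horizontal axis, positive where chronic hypoxia is higher) for Fos, Jun and Arc under each processing choice, with a grey bar of 1 SE on each side where a model was fitted. Fos crosses 0 between choices, Jun is above 0 in each but ranges from 0.10 to 1.75, and Arc is above 0 in each fit of the membranes and below 0 in the authors' deposited table.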

How the data were processed

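Per the labels' protocols and the submitters' design text, the authors hybridised 32P-labelled cDNA from amplified RNA to Atlas Rat 1.2 membranes and quantified phosphorimager scans with AtlasImage V2.0. The deposited intensity files hold 1 linear value per spot and membrane with background included, up to 65535, and no normalization between membranes. The authors also deposited a table with 1 intensity per condition, per the same text averaged over 3 membranes and normalized with a coefficient from the average signal. How background was removed there is not given in the sources used here. The number of arrays limits the precision.

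Intensities were corrected with normexp (offset 50), log2 transformed and quantile normalized (limma 3.58.1, run in R 4.3.3). The size of log2 differences of dim spots depends on this correction. The median difference of the members was 0.25 without background correction, against 0.45 with it. A spot was tested if 3 or more of its 6 values exceeded the 25th percentile of their membrane (lmFit, eBayes, Benjamini-Hochberg adjustment, threshold 0.05). Single values also had a two-sided exact permutation test over 20 assignments. The deposited values come in steps of about 52 (membrane 1 of each group) or of about 103 (chronic hypoxia membrane 2, normoxia membranes 2 and 3). Those of chronic hypoxia membrane 3 follow neither step. Membranes were grouped by step size as a stand-in for scan format, which was inferred from the values alone. The fit was also run on simulated data as a self-test, whose outcome is not given here and from which no result is drawn. Symbols were assigned by hand to 75 spots from deposited names and found in the RefSeq table of gene symbols.

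The members and lists were chosen with earlier results of these data known. Named are all members, up to 4 genes per list with the smallest p among those above background on at least 3 membranes, bright spots beside members and the 3 genes most like Fos and Jun. Mapk8, Mapk9, Mapk10, the CREB spot, Btg2, Irf1, Myc, Vegfd, Plau, Plat, Vhl, Mycn, Nr4a3 and Arc were named outside that rule after their values were seen. From the lists, 21 names caught by letters with another meaning were dropped, and the results of 1 list are not reported here. Tables were handled in Python 3.11.15 (pandas 2.3.3, scipy 1.17.1).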

Additional observations from a re-analysis of the deposited data

How the results depend on the processing

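Under the 17 alternative fits limma called 0 genes between chronic hypoxia and normoxia, with 40 to 146 genes at an unadjusted p under 0.05 where 1038 were tested, 80 of 1185 without the filter, 10 of the 152 above background on at least 3 membranes, and a lowest adjusted p of 0.0512 (without normalization between membranes). The Fos difference of -0.25 turned to 0.13 with the step size as a block. Within the steps of 52 and 103 it was 0.28 and 0.0093. With each membrane left out in turn, the Fos difference ranged from -0.59 to 0.18. It was negative in 16 of its 20 alternatives, and the cause of the turn was not tested. Jun was higher in chronic hypoxia in all 20 alternatives and ranged from 0.10 to 1.57 when each membrane was left out. Over all alternatives with a limma fit, the limma adjusted p of Jun lay between 0.393 (with membrane weights) and 0.991. Arc was higher in chronic hypoxia in each fit, and its log2 ratio in the authors' deposited table was -0.93. With the membrane number as a replicate block the differences stayed at -0.25 for Fos and 0.90 for Jun (limma adjusted p = 0.916 and 0.716), 0 genes were called and 83 had an unadjusted p under 0.05. Deviations of same-numbered membranes from their group means correlated at 0.09, 0.11 and 0.02. Not every pair was over 0.1, and the numbers were not taken as pairs. Because deviations sum to 0 within each group, these correlations are tied to each other and cannot decide whether the numbers mark pairs. Membranes 1 and membranes 2, which also share a step size across the groups, correlated best with their own number, and chronic hypoxia membrane 3 did not. The median differences of 3 gene lists (MAP kinases, calcium and cAMP kinases, other rapidly induced genes) and of the members took both signs among their alternatives. Averaging chronic hypoxia membranes 1 and 3, chosen after seeing the data, gave -0.10 for Fos and 0.60 for Jun. Background limits what can be seen of the other 6 members, which have no fold.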
